A study of Mus musculus with 64 samples.

Results

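Wee1, the Cip/Kip inhibitors Cdkn1a, Cdkn1b and Cdkn1c, and the D-cyclins Ccnd1, Ccnd2 and Ccnd3 were followed in hearts that lacked the transcriptional repressor E4BP4 in cardiomyocytes. They are 7 of the 48795 genes in the count table, and all 7 passed the filter on low counts that left 16417 genes. The genes were taken by name, and the set had been chosen by the average CEK minus CON difference of Wee1 and Cdkn1a in earlier results of the same libraries. The genotype differences of the 7 genes are therefore given as a description with no test, and tests are kept for time of day and for relations among hearts.

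The kinase WEE1 phosphorylates and so restrains CDK1 before mitosis, and Wee1 is a textbook example of a gene under circadian control. The Cip/Kip proteins p21 (Cdkn1a), p27 (Cdkn1b) and p57 (Cdkn1c) bind and inhibit complexes of cyclins with CDK2, whereas D-cyclins activate CDK4 and CDK6, which phosphorylate the retinoblastoma protein at the entry to the cell cycle. Most adult cardiomyocytes have left the cell cycle, so in a whole heart these transcripts come from muscle and non-muscle cells together.

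The tested hearts came from mice with a cardiomyocyte-specific E4BP4 knockout (CEK), and the controls were littermates (CON); all were male C57BL/6 mice. Biventricular tissue was collected at 8 zeitgeber times spaced 3 h apart (ZT0 to ZT21), with 4 biological replicates in each of 16 groups of genotype and time, 64 libraries in all. The Cre driver, the deleted exons, the Cre status of the littermates, the ages and the light schedule are not stated in the labels. Nfil3, which encodes E4BP4, had 2.24 ± 1.34 CPM (TMM-scaled counts per 1000000) in CEK hearts and 17.3 ± 8.94 CPM in CON hearts (SD, n = 32 each).

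Depth ran from 7.71 to 45.6 M counts on genes per library, with a median of 26.7 M (1 M is 1000000 counts). All 10 cardiomyocyte markers were above 0 in all 64 libraries, and their summed level was 71749 to 88226 CPM in CEK hearts and 73771 to 91620 CPM in CON hearts. Across the groups 3 libraries stood apart on the first principal component of expression, namely replicate 4 of CEK at ZT0 and, at ZT18, replicate 1 of CEK together with replicate 3 of CON. The same 3 libraries had the lowest Ccnd1 of all, with 7.98, 13.4 and 9.26 CPM. Values of the 7 genes that turned on them are also given without them.

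Wee1 was higher in CEK hearts at all 8 times, while its highest mean came at ZT12 in both genotypes (chr7:110122046-110143286, plus strand, GRCm38). At ZT0 the 4 CEK hearts had 22.8, 27.3, 28.7 and 19.2 CPM and the 4 CON hearts had 15.9, 13.95, 13.95 and 12.6 CPM. At ZT3, the trough in both genotypes, the CEK hearts had 16.5, 20.9, 18.7 and 13.4 CPM and the CON hearts 8.36, 9.33, 10.3 and 8.60 CPM. At both times the lowest CEK heart lay above the highest CON heart.

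At ZT6 Wee1 was at 21.6, 17.7, 23.9 and 22.4 CPM in CEK hearts and at 11.5, 10.7, 11.6 and 17.997 CPM in CON hearts. At ZT9 the values were 32.8, 31.2, 33.9 and 31.2 CPM in CEK hearts and 17.5, 23.6, 24.04 and 26.7 CPM in CON hearts. The groups overlapped at ZT6 through 1 CON heart and did not overlap at ZT9. At ZT12, the highest time, CEK hearts had 45.6, 55.5, 37.3 and 42.8 CPM and CON hearts 29.9, 33.1, 30.2 and 31.5 CPM, again without overlap.

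After ZT12 the groups came closer. At ZT15 Wee1 was at 37.6, 38.5, 32.7 and 34.96 CPM in CEK hearts and at 34.8, 28.2, 30.5 and 27.5 CPM in CON hearts. At ZT18 the values were 23.9, 32.5, 30.7 and 31.4 CPM in CEK hearts and 21.9, 26.5, 16.7 and 19.6 CPM in CON hearts. The groups overlapped at ZT15 and ZT18. At ZT21 they parted again, with 23.6, 27.1, 27.1 and 31.7 CPM in CEK hearts and 19.7, 17.1, 16.997 and 18.4 CPM in CON hearts.

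Averaged over the 8 times, Wee1 had 29.2 ± 9.06 CPM in CEK hearts and 19.97 ± 7.96 CPM in CON hearts (SD, n = 32 each, time of day included), a log2 fold change of 0.60 ± 0.050 (SE). By time, the log2 fold change of Wee1 was 0.80 ± 0.142 at ZT0, 0.93 ± 0.144 at ZT3 and 0.25 ± 0.140 at ZT15 (SE, n = 4 each). At the other times it was 0.72 (ZT6), 0.49 (ZT9), 0.54 (ZT12), 0.47 (ZT18) and 0.60 (ZT21). The edgeR test of whether the genotype difference varied over the 8 times did not pass for Wee1 (below). Without CON replicate 4 at ZT6, the log2 fold change of Wee1 at that time was 0.93 in place of 0.72.

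**Figure D1:**
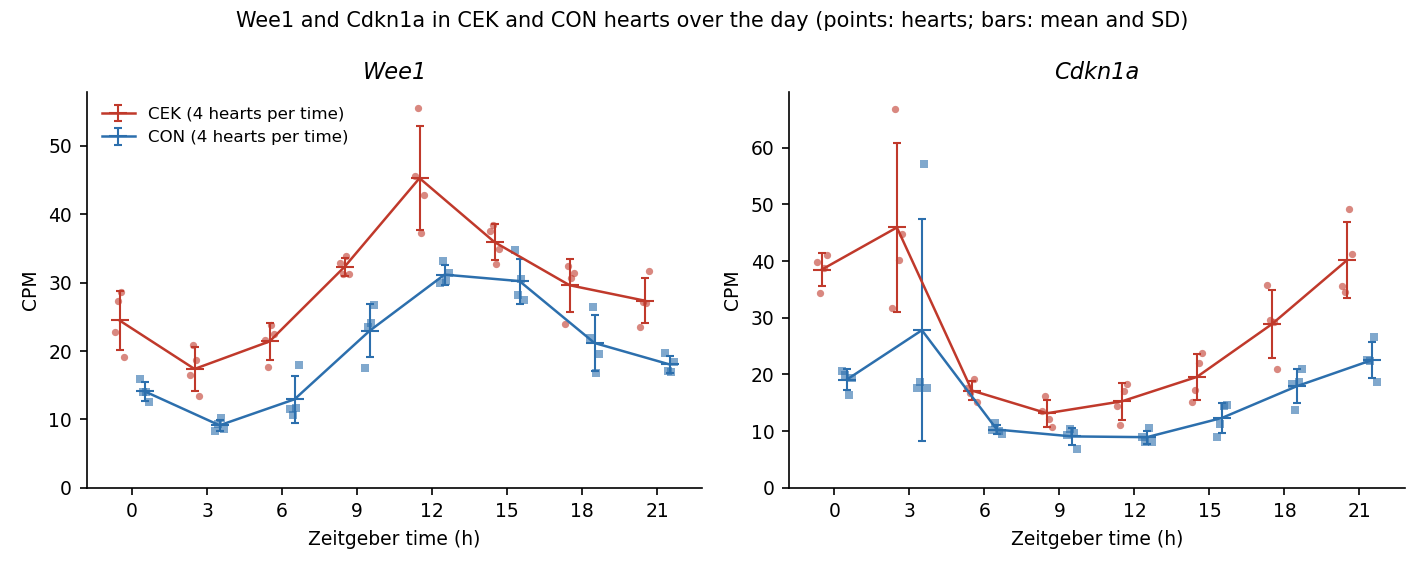
CPM of Wee1 (left) and Cdkn1a (right) against zeitgeber time in hours, with 1 point per heart and the mean and SD of 4 hearts for CEK (red circles) and CON (blue squares). Wee1 was highest at ZT12 and lowest at ZT3 in both genotypes, Cdkn1a ran high from ZT18 to ZT3, and 1 CON heart at ZT3 had 57.2 CPM of Cdkn1a.

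Cdkn1a, which encodes p21, was higher in CEK hearts with a log2 fold change between 0.53 (ZT9) and 1.01 (ZT0), and it peaked at another time of day than Wee1. The gene lies at chr17:29090976-29100727 on the plus strand (GRCm38). At ZT0 the CEK hearts had 39.9, 34.3, 38.7 and 41.2 CPM and the CON hearts had 20.6, 19.9, 16.4 and 19.4 CPM. All CEK hearts were far above all CON hearts at that time.

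At ZT3 Cdkn1a was at 31.8, 66.8, 40.3 and 44.9 CPM in CEK hearts and at 17.7, 18.7, 57.2 and 17.6 CPM in CON hearts. This was the single time at which the groups overlapped, through CON replicate 3. Without that heart the log2 fold change of Cdkn1a at ZT3 was 1.35 in place of 0.73. At ZT6 the CEK hearts had 17.6, 16.7, 19.2 and 15.2 CPM and the CON hearts 10.1, 11.5, 9.96 and 9.53 CPM.

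The low point came at ZT9 and ZT12. At ZT9 Cdkn1a was at 13.5, 16.2, 12.1 and 10.7 CPM in CEK hearts and at 9.38, 10.5, 9.62 and 6.85 CPM in CON hearts. At ZT12 it was at 14.4, 11.1, 17.1 and 18.4 CPM in CEK hearts and at 8.93, 8.13, 10.5 and 8.15 CPM in CON hearts. The groups did not overlap at either time.

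From ZT15 to ZT21 Cdkn1a climbed in both genotypes. At ZT15 CEK hearts had 15.1, 17.2, 22.1 and 23.8 CPM and CON hearts 8.93, 11.3, 14.5 and 14.6 CPM. At ZT18 CEK hearts had 35.7, 29.6, 29.3 and 20.996 CPM and CON hearts 18.4, 13.7, 18.7 and 20.96 CPM, so the lowest CEK heart was barely above the highest CON heart. At ZT21 CEK hearts had 35.7, 34.5, 49.2 and 41.2 CPM and CON hearts 22.5, 22.3, 26.6 and 18.7 CPM, well apart.

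Over the day Cdkn1a averaged 27.3 ± 13.5 CPM in CEK hearts and 16.002 ± 9.19 CPM in CON hearts (SD, n = 32 each, time of day included), a log2 fold change of 0.75 ± 0.083 (SE). The lowest CEK heart exceeded the highest CON heart at 5 of 8 times for Wee1 and at 7 of 8 times for Cdkn1a. Among all 16417 tested genes, 58 (0.353%) did so at 5 or more times and 23 (0.140%) at 7 or more. As these differences were taken to have chosen the genes, nothing is read from the shares.

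The 250 bases before both RefSeq starts of Cdkn1a are shown because the p53 element known from this promoter lies in the first of them. Whether p53 acts on Cdkn1a in these hearts was not tested. Capitals mark a stretch that fits a pair of adjacent p53 half-sites with 1 mismatch, a search added after the letters had been seen. The windows are on the plus strand of GRCm38.p6, at chr17:29090729-29090978 and chr17:29093519-29093768.
Cdkn1a, before the upstream start: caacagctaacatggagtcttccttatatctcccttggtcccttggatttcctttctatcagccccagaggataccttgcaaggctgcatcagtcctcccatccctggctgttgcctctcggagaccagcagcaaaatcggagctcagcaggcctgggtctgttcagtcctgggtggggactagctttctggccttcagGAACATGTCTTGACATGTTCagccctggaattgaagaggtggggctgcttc
Cdkn1a, before the downstream start: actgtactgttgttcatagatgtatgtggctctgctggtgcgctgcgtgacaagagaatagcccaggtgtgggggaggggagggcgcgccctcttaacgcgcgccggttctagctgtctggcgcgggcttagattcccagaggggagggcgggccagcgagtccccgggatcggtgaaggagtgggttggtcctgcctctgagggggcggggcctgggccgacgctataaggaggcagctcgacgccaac
The marked stretch, at chr17:29090928-29090947, ends 32 bases before the upstream start and 2822 bases before the downstream start. Of 32851 RefSeq windows of 300 bases (250 before to 50 after a start), 29 (0.0883%) held a match with at most 1 mismatch. As the search came after the letters had been seen, nothing is read from this share. Windows were given for 3 of the 7 genes, Cdkn1a, Cdkn1b and Ccnd3. None of their 5 windows held the D-box sequences TTATGTAA or TTACGTAA (in 1.06% of all windows, both strands) or the E-box CACGTG (7.15%), and none held CACGTT (4.68%), TAGGTCA (2.61%) or TGACGTCA (1.79%). These are matches of letters and not measured binding.

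The other Cip/Kip genes did not share the difference of Cdkn1a. Cdkn1b (p27; chr6:134920401-134925513, plus strand) had 29.2, 42.5 and 54.97 CPM as lowest, median and highest value of the 32 CEK hearts and 32.9, 44.4 and 73.7 CPM in the 32 CON hearts. Cdkn1c (p57; chr7:143458339-143461050, minus strand) had 5.62, 9.87 and 15.6 CPM in CEK hearts and 8.14, 11.1 and 17.3 CPM in CON hearts. For both genes the genotypes overlapped at all 8 times. Overlap was the common case: of all tested genes, 11.9% had every CEK heart above every CON heart at 1 time or more. A further share of 10.5% had every CEK heart below at 1 time or more, counted separately.

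The average log2 fold change was -0.08 ± 0.050 for Cdkn1b and -0.17 ± 0.073 for Cdkn1c (SE). Cdkn1b lay between -0.30 (ZT3) and 0.18 (ZT9), and Cdkn1c between -0.33 (ZT21) and 0.02 (ZT0). The value of Cdkn1c at ZT0 turned on CEK replicate 4, a library that stood apart, with 15.5 CPM against 6.64 to 10.1 CPM in the other CEK hearts, and it was -0.23 without that heart. Cdkn1b at ZT3 was -0.10 without CON replicate 2, and at ZT9 it was 0.09 without CON replicate 1. With length taken into account (RPKM), Cdkn1a made up 33.3 ± 11.2% of the summed Cip/Kip level in CEK hearts and 21.5 ± 8.19% in CON hearts (SD, n = 32 each). At ZT0 that share was 44.1 ± 1.91% in CEK hearts and 26.3 ± 2.69% in CON hearts, and at ZT9 it was 20.03 ± 4.14% in CEK hearts and 15.4 ± 2.57% in CON hearts (SD, n = 4 each).

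The D-cyclins had smaller average differences between the genotypes than Wee1 and Cdkn1a. By log2 fold change, Ccnd2 and Ccnd3 were higher in CEK hearts at all 8 times and Ccnd1 at 7. Their CPM ranges overlapped at all 8 times, the common case among all tested genes by the shares above. Ccnd2 (chr6:127125162-127152193, minus strand), in many adult tissues one of the main D-cyclins, had 87.3, 101 and 170 CPM as lowest, median and highest value in CEK hearts and 72.7, 91.3 and 122 CPM in CON hearts. Ccnd3 (chr17:47505051-47599691, plus strand) had 27.98, 45.7 and 52.2 CPM in CEK hearts and 32.8, 40.3 and 49.5 CPM in CON hearts. Ccnd1 (chr7:144929931-144939925, minus strand) had 7.98, 30.6 and 44.4 CPM in CEK hearts and 9.26, 27.4 and 41.6 CPM in CON hearts.

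The average log2 fold change was 0.20 ± 0.049 for Ccnd2, 0.15 ± 0.038 for Ccnd3 and 0.12 ± 0.100 for Ccnd1 (SE). The highest value at a single time was that of Ccnd2 at ZT0, 0.41, which rested on CEK replicate 4 (170 CPM) and was 0.22 without that heart. The value of Ccnd2 at ZT18, 0.17, rested on CEK replicate 1 (164 CPM) and was -0.08 without that heart. Of the 40 differences of Cdkn1b, Cdkn1c and the D-cyclins at single times, 14 changed sign when 1 library was left out. None of the 16 of Wee1 and Cdkn1a did so. As the differences of Wee1 and Cdkn1a were taken to have chosen the genes, nothing is read from that contrast. Shares of the summed D-cyclin level (RPKM) were nearly the same in both genotypes: Ccnd2 made up 49.6 ± 7.06% in CEK hearts and 48.5 ± 4.44% in CON hearts, and Ccnd1 27.95 ± 5.74% in CEK hearts and 28.7 ± 4.67% in CON hearts (SD, n = 32 each). Exons of Ccnd1 and Ccnd3 share 1100 and 361 bases with the genes LTO1 and Bysl on the other strand, which had mean counts of 512 and 728 per library. Also on the other strand, exons of Cdkn1c share 625 bases with Gm44732 and those of Cdkn1a 273 with AC167363.2. Exons of Ccnd2 share 372 bases with Gm43126 and 368 with 9330179D12Rik. As the labels do not state whether counting used the strand, reads of all these stretches cannot be told apart. The values of Ccnd1, Ccnd3, Cdkn1c, Cdkn1a and Ccnd2, and the RPKM levels and shares, are uncertain to that extent.

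**Figure D2:**
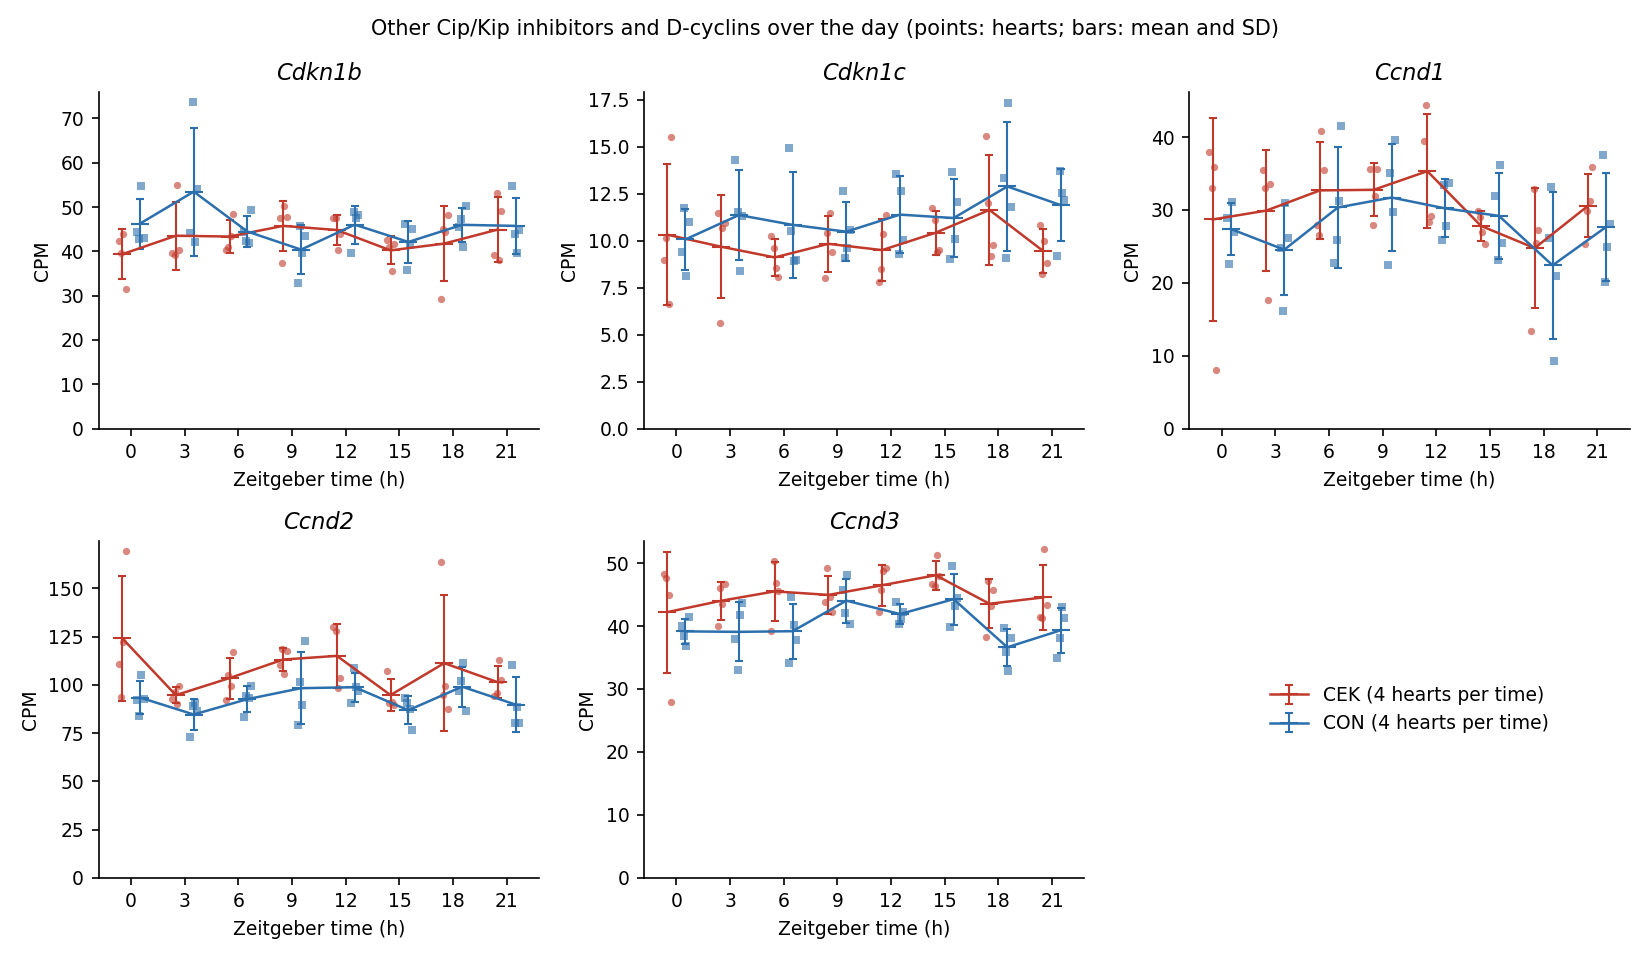
CPM of Cdkn1b, Cdkn1c, Ccnd1, Ccnd2 and Ccnd3 against zeitgeber time in hours, with 1 point per heart and the mean and SD of 4 hearts for CEK (red circles) and CON (blue squares). The genotypes overlapped at all 8 times, and single hearts reached 170 CPM of Ccnd2 (CEK, ZT0) and 7.98 CPM of Ccnd1 (the same heart).

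**Figure D3:**
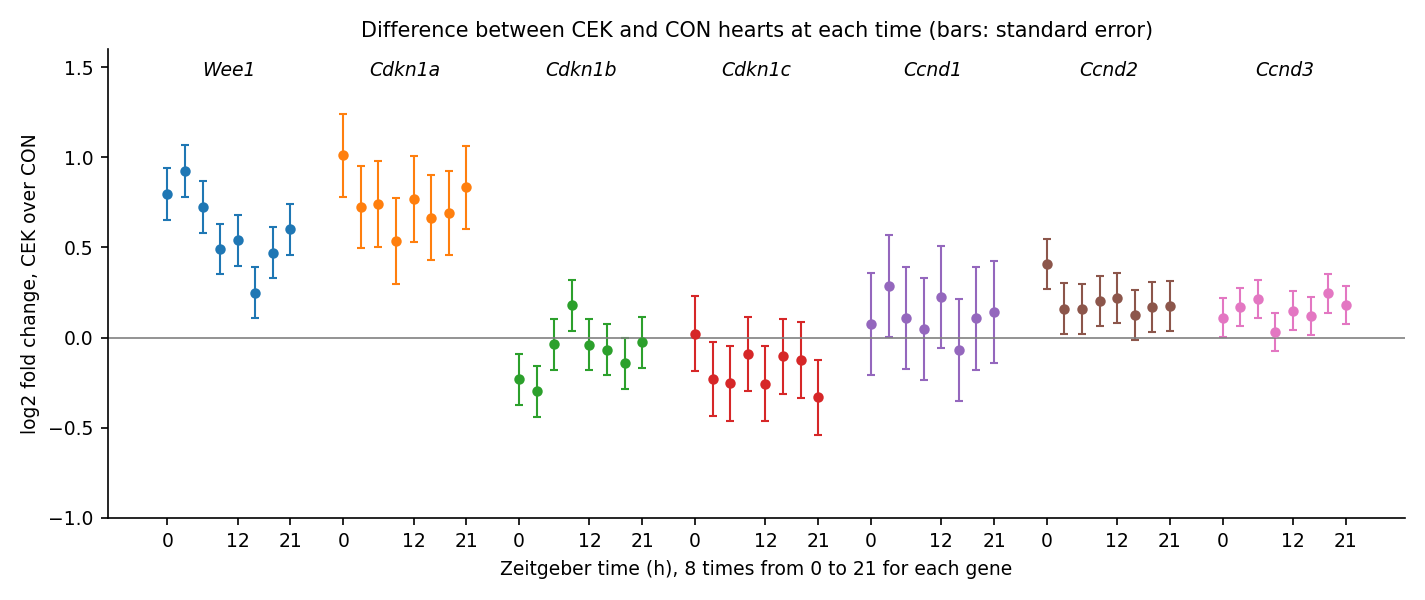
Log2 fold change of CEK over CON hearts for each of the 7 genes at the 8 zeitgeber times, from left to right within a gene, with bars for the standard error (n = 4 hearts per genotype and time). Wee1 and Cdkn1a lay above 0 at all times, from 0.25 to 0.93 and from 0.53 to 1.01, and the other 5 genes stayed between -0.33 and 0.41, the upper end being Ccnd2 at ZT0 (0.22 without CEK replicate 4).

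Over all tested genes, 6.69% passed an adjusted p of 0.05 as higher and 5.3% as lower in CEK hearts, and the median log2 fold change was -0.000721. No count of the 7 genes is set against these shares, because this contrast was taken to have chosen them. In whole tissue, a change in the number of cells of a type and a change of RNA per cell cannot be told apart.

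Relative to length, all 7 transcripts lay within a narrow range of levels. In CEK hearts the order of mean levels was Ccnd2 (11.4 ± 2.06 RPKM), Cdkn1b (9.44 ± 1.25), Wee1 (8.55 ± 2.65), Cdkn1a (7.69 ± 3.796), Ccnd1 (6.44 ± 1.58), Ccnd3 (5.12 ± 0.526) and Cdkn1c (4.90 ± 1.02 RPKM; SD, n = 32). In CON hearts it was Cdkn1b (10.01 ± 1.56 RPKM), Ccnd2 (9.87 ± 1.16), Ccnd1 (5.93 ± 1.44), Wee1 (5.84 ± 2.33), Cdkn1c (5.52 ± 1.08), Ccnd3 (4.61 ± 0.455) and Cdkn1a (4.50 ± 2.59 RPKM; SD, n = 32). Neighbours in each order differed by less than the larger of their SDs, except Ccnd2 and Ccnd1 in CON hearts. Cdkn1a stood last in the CON order and in the middle of the CEK order.

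Time of day within a genotype is another contrast than the average difference, which was taken as the value that chose the genes. Earlier results of these libraries may have shown the rhythms too, so the p-values below cannot be taken as independent of the choice. Wee1 and Cdkn1a were rhythmic in both genotypes, and the other 5 genes passed no test for time of day. A 24-h cosine was fitted to each genotype by edgeR's quasi-likelihood test with Benjamini-Hochberg adjustment over all 16417 genes. The Wee1 rhythm had an adjusted p of 1.975e-08 in CEK and 4.39e-14 in CON hearts, and the Cdkn1a rhythm 1.88e-09 in CEK and 2.07e-07 in CON hearts. So 2 of the 7 genes were called in each genotype, against 15.6% of all tested genes in CEK and 14.6% in CON hearts.

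With the 8 times compared as separate groups in the same edgeR quasi-likelihood framework, the same 2 genes passed in both genotypes, Wee1 with adjusted p of 7.63e-10 in CEK and 6.51e-15 in CON hearts, and Cdkn1a with 1.43e-09 in CEK and 5.64e-08 in CON hearts. Here 8.39% of all tested genes passed in CEK and 7.73% in CON hearts. The rhythm calls for Wee1 and Cdkn1a held in each of the alternatives run, including fits without the 3 libraries that stood apart.

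By the fitted cosine, Wee1 peaked at ZT14.0 ± 0.462 in CEK hearts and at ZT14.2 ± 0.317 in CON hearts (SE). Its amplitude on the log2 scale was 0.52 ± 0.063 in CEK and 0.77 ± 0.064 in CON hearts (SE). This is a fitted peak-to-trough ratio of 2.05 in CEK and 2.91 in CON hearts. Group means of Wee1 ran from 17.4 CPM (ZT3) to 45.3 CPM (ZT12) in CEK and from 9.14 to 31.2 CPM in CON hearts. The fitted peak of Cdkn1a was at ZT23.0 ± 0.419 in CEK and ZT23.0 ± 0.497 in CON hearts. Its amplitudes were 0.88 ± 0.097 in CEK and 0.77 ± 0.099 in CON hearts (SE), with fitted peak-to-trough ratios of 3.40 and 2.89. The highest group mean of Cdkn1a came later, at ZT3, with 45.9 CPM in CEK and 27.8 CPM in CON hearts. In CON hearts that mean rested on replicate 3 (57.2 CPM), and the highest median was at ZT21 (22.4 CPM, against 18.2 CPM at ZT3). Both genes ranked high among rhythmic genes. Amplitudes larger than that of Wee1 were found for 12.5% of the 2560 rhythmic genes in CEK and 4.55% of the 2393 in CON hearts, and larger than that of Cdkn1a for 3.01% in CEK and 4.68% in CON hearts.

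Against clock genes in the same hearts, by fitted peak time, Wee1 came just after Per2, a clock repressor (ZT13.1 in CEK and ZT13.2 in CON hearts). The fitted peak of Cdkn1a was close to that of Arntl, which encodes the clock activator BMAL1 (ZT23.5 in CEK and ZT23.7 in CON hearts). The highest group mean of Cdkn1a, at ZT3, came after both. Dbp, a D-box activator, peaked at ZT9.89 in CEK and ZT9.91 in CON hearts. Nr1d1, a clock repressor, peaked at ZT7.04 in CEK and ZT7.03 in CON hearts. Nfil3 peaked at ZT21.0 in CON hearts, and its remaining transcript in CEK hearts at ZT23.3.

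No change of rhythm between the genotypes passed for any of the 7 genes. The amplitude of Wee1 was lower in CEK than in CON hearts by 0.25 with a standard error of 0.090, and edgeR's quasi-likelihood test gave Wee1 an adjusted p of 1.00 for a difference in rhythm. The edgeR test of whether the genotype difference varied over the 8 times gave Wee1 an adjusted p of 1.00 as well. Cdkn1a had an adjusted p of 1.00 in both of these edgeR tests. Either test called only Nfil3, 0.00609% of the tested genes. Before adjustment 409 genes had p under 0.05 for a difference in rhythm and 313 for a varying genotype difference, and DESeq2 called 1 and 2 genes. A p that misses the threshold does not show that the rhythm of Wee1 was the same.

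The remaining 5 genes had small fitted amplitudes. The highest was that of Ccnd1, with 0.15 ± 0.095 in CEK and 0.14 ± 0.096 in CON hearts, and Cdkn1c had 0.10 ± 0.070 in CEK and 0.08 ± 0.070 in CON hearts (SE, log2 scale). Ccnd3 reached 0.06 ± 0.037 in CEK and 0.09 ± 0.037 in CON hearts, Cdkn1b 0.05 ± 0.050 in CEK and 0.10 ± 0.050 in CON hearts, and Ccnd2 0.00 ± 0.052 in CEK and 0.05 ± 0.052 in CON hearts. With edgeR's quasi-likelihood test their adjusted p for rhythm lay between 0.221 (Ccnd3 in CON) and 0.999 (Ccnd2 in CEK).

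Within a group, hearts varied together in some of these genes. After removal of the 16 group means, Wee1 was positively related to Ccnd1 over 64 hearts (Pearson r = 0.65, adjusted p = 0.00021; Spearman rho = 0.66, adjusted p = 0.000105; permutation within groups, adjusted over 21 pairs). Cdkn1c ran against both, with Ccnd1 at r = -0.69 (adjusted p = 0.00021; rho = -0.66, adjusted p = 0.000105) and with Wee1 at r = -0.64 (adjusted p = 0.00021; rho = -0.60, adjusted p = 0.00014) by the same permutation test. Without the 2 hearts farthest from the median these were 0.63, -0.68 and -0.64, and without the 3 libraries that stood apart 0.57, -0.59 and -0.56. The relation of Wee1 and Cdkn1a did not pass (permutation, r = -0.14, adjusted p = 0.511; rho = -0.25, adjusted p = 0.137).

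The genes in these relations also followed the first principal component, which held 27.6% of the variance of all genes. Among 28 relations of the 7 genes with 4 library measures, its r was -0.72 with Wee1, 0.82 with Cdkn1c, -0.76 with Ccnd1 and -0.74 with Cdkn1b (rho = -0.70, 0.80, -0.67 and -0.79), with permutation adjusted p of 9.33e-05 for r with Wee1, Cdkn1c and Cdkn1b, 0.000112 for r with Ccnd1 and 7e-05 for rho with each. Without the 3 libraries that stood apart these r were -0.65, 0.77, -0.58 and -0.69, and without the 2 farthest hearts -0.68, 0.79, -0.66 and -0.69. Cdkn1a had r = 0.18 with the component (adjusted p = 0.339; rho = 0.27, adjusted p = 0.115, permutation). What the component stands for was not tested. The share of counts on mitochondrial genes, which was 24.3 ± 3.62% in CEK and 24.9 ± 3.16% in CON hearts (SD, n = 32 each; adjusted p = 0.612, permutation), also ran with some of these genes. Its r was -0.45 with Cdkn1c (adjusted p = 0.00359; rho = -0.43, adjusted p = 0.00632, permutation). With Ccnd3 it was 0.36 (adjusted p = 0.0246; rho = 0.31, adjusted p = 0.0851, permutation) and with Ccnd1 0.34 (adjusted p = 0.0369; rho = 0.26, adjusted p = 0.117, permutation). Without the 2 farthest hearts these were -0.35, 0.27 and 0.23.

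Macrophage marker genes were also higher in CEK hearts, and Cdkn1a moved with them. The mean log2 CPM of 10 macrophage and myeloid markers was 4.14 ± 0.249 in CEK hearts and 3.83 ± 0.246 in CON hearts (SD, n = 32 each; permutation within times, adjusted p = 7.5e-05 over 15 measures). Of the 10 markers 9 passed as higher in CEK hearts by edgeR's quasi-likelihood test, none was at 0 in any library, and their sum was 252 to 613 CPM in CEK hearts and 214 to 489 CPM in CON hearts.

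Within groups, the Cdkn1a deviation had r = 0.67 with this score (rho = 0.64, permutation adjusted p = 0.000112 for both; 0.63 without the 2 farthest hearts). Cdkn1b had r = -0.49 with the score (adjusted p = 0.00376; rho = -0.53, adjusted p = 0.0007, permutation; -0.49 without the 2 farthest hearts) and Wee1 r = -0.19 (adjusted p = 0.339; rho = -0.29, adjusted p = 0.115, permutation). The CON heart at ZT3 with 57.2 CPM of Cdkn1a had a score of 4.34, and the other 3 hearts of its group had 3.88, 3.79 and 3.65. With the score as a covariate the average log2 fold change of Cdkn1a was 0.42 in place of 0.75, while that of Wee1 was 0.66 in place of 0.60. In that fit Cdkn1a was at 0.27 in place of 1.01 at ZT0 and at 0.15 in place of 0.73 at ZT3, while at ZT9 it was at 0.64 in place of 0.53. Cdkn1b was at 0.07 in place of -0.08, and Ccnd3 at 0.12 in place of 0.15. The part of macrophage RNA in these values was not tested further.

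**Figure D4:**
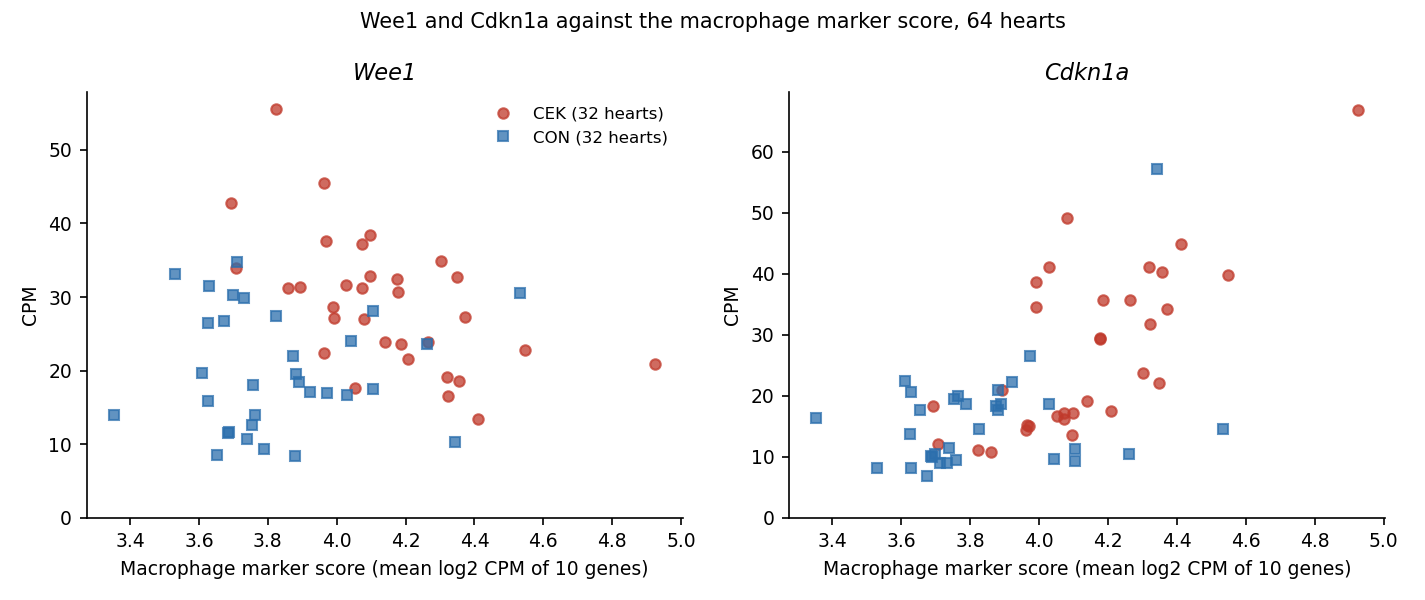
CPM of Wee1 (left) and Cdkn1a (right) against the macrophage marker score (log2 CPM averaged over 10 genes), with 1 point per heart for 32 CEK (red circles) and 32 CON hearts (blue squares), all times together. The hearts with the highest Cdkn1a, 66.8 CPM (CEK) and 57.2 CPM (CON), both taken at ZT3, had scores of 4.93 and 4.34. The CON heart with the highest score, 4.53 at ZT15, had 14.5 CPM of Cdkn1a. The highest Wee1, 55.5 CPM (CEK), came with a score of 3.82.

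Single markers of atrial cardiomyocytes passed as lower in CEK hearts, although biventricular tissue was taken, while the atrial score did not pass. By edgeR's quasi-likelihood test 6 of the 8 atrial markers passed as lower and 0 as higher, with a list median log2 fold change of -0.84. Of all tested genes, 5.3% passed as lower and 6.69% as higher. Their sum was 168 to 2419 CPM in CEK hearts and 153 to 4459 CPM in CON hearts, and Bmp10 was at 0 in some libraries. The atrial score was 5.59 ± 1.02 in CEK and 6.06 ± 1.44 in CON hearts (SD, n = 32 each; adjusted p = 0.296, permutation). With the atrial score as a covariate the average log2 fold change was 0.59 for Wee1 and 0.77 for Cdkn1a. The 6 epicardial and mesothelial markers had a median of -0.66, with 1 higher and 0 lower (score 1.448 ± 0.930 in CEK and 1.76 ± 0.927 in CON hearts, adjusted p = 0.311, permutation). The 6 adipocyte markers had a median of -0.43 and no call.

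The cardiomyocyte score was 12.4 ± 0.063 in CEK and 12.5 ± 0.070 in CON hearts (adjusted p = 7.5e-05, permutation), the endothelial score 6.45 ± 0.092 in CEK and 6.55 ± 0.093 in CON hearts (adjusted p = 0.00015, permutation), and the fibroblast score 6.25 ± 0.212 in CEK and 6.14 ± 0.164 in CON hearts (adjusted p = 0.0286, permutation; SD, n = 32 each).

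For each of the 7 genes, the 5 genes with the most similar pattern were found by Pearson correlation of mean log2 CPM over the 16 groups, among 11258 genes, as a description. For Wee1 these were Paqr7 (r = 0.912), Ier3 (0.906), Rhobtb1 (0.904), Trib1 (0.900) and Lonrf1 (0.898). For Cdkn1a they were Rcan1 (r = 0.938), an inhibitor of calcineurin, then Arl4c (0.928), Arvcf (0.913), Chid1 (0.904) and Tnfrsf12a (0.893), the receptor of the cytokine TWEAK. The genes nearest to the others were Tspyl1 for Cdkn1b (0.914), Rab2a for Cdkn1c (0.949), Jpt2 for Ccnd1 (0.943), Ncam1 for Ccnd2 (0.857) and Ccdc8 for Ccnd3 (0.954). The next nearest were Ube2v2, Ubqln2, Dr1 and Ppp1cb for Cdkn1b, and Cpe, Penk, Gcat and Hs1bp3 for Cdkn1c. They were Mgrn1, Coro7, Tmem241 and Vps33b for Ccnd1, and Oplah, Gramd1a, Nrbp2 and Plppr2 for Ccnd3. All group means come from the same 64 libraries, so they share depth and the libraries that stood apart.

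Around these genes, the p53 pathway held 7 genes past the threshold, more than any of the other 6 cell-cycle lists, and it was also the longest of them. All of these lists were chosen with earlier results of these data known. Their calls, shares and p-values, here and below, are therefore a description and not independent of that choice. Of its 25 genes, all tested, 7 were higher and 0 lower in CEK hearts by edgeR's quasi-likelihood test, with a list median log2 fold change of 0.07 and 6.69% of all tested genes higher. Phlda3, which encodes a p53-induced inhibitor of AKT, had 16.9 ± 4.23 CPM in CEK and 10.6 ± 1.99 CPM in CON hearts (log2 fold change 0.65 ± 0.072, edgeR quasi-likelihood adjusted p = 5.9e-10). Eda2r, a receptor of the TNF family, had 3.67 ± 0.715 CPM in CEK and 2.501 ± 0.564 CPM in CON hearts (0.54 ± 0.072, adjusted p = 1.13e-07).

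Aen, a nuclease linked to apoptosis, rose by 0.26 ± 0.046 and Perp, a desmosomal and p53-induced membrane protein, by 0.19 ± 0.034 on the log2 scale. With the macrophage score as a covariate Phlda3, Eda2r, Aen and Perp were at 0.49, 0.60, 0.25 and 0.17 and all passed. The transcripts of p53 itself (Trp53) and of its inhibitor Mdm2 had log2 fold changes of 0.07 ± 0.036 and 0.05 ± 0.032 and did not pass (edgeR quasi-likelihood adjusted p = 0.241 and 0.394). Trp53 and Mdm2 were picked out after their values were seen.

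**Figure D5:**
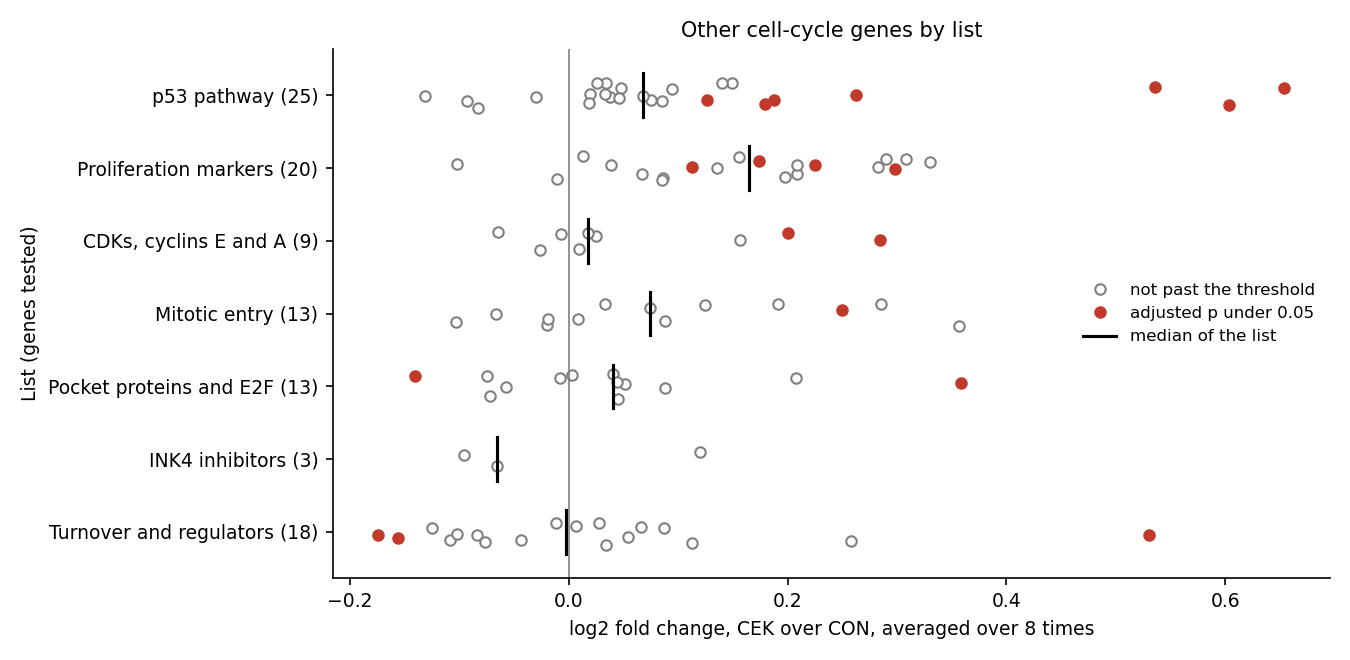
Log2 fold change of CEK over CON hearts, averaged over 8 times, for the tested genes of 7 lists (number of genes in parentheses), with filled circles for genes past an adjusted p of 0.05 and a bar at the median of each list. The p53 pathway held 7 filled circles, all above 0, and the proliferation markers 4 with a list median of 0.17.

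Of 20 proliferation markers, all tested, 4 were higher and 0 lower in CEK hearts by edgeR's quasi-likelihood test, against 6.69% and 5.3% of all tested genes. The other 16 did not pass, and the list median was 0.17. Mki67, a marker of cycling cells, had 4.59 ± 1.09 CPM in CEK and 3.74 ± 1.09 CPM in CON hearts (log2 fold change 0.30 ± 0.089, edgeR quasi-likelihood adjusted p = 0.0183). The subunits of the replicative helicase Mcm2, Mcm3 and Mcm7 had log2 fold changes of 0.22 ± 0.052, 0.17 ± 0.051 and 0.11 ± 0.037 (SE). With the macrophage score as a covariate Mki67, Mcm2, Mcm3 and Mcm7 did not pass, and Mcm7 had an adjusted p of 0.0543 without the 3 libraries that stood apart (edgeR quasi-likelihood test).

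Among partners of the CDKs in G1 and S phase, 2 of 9 tested genes were higher and 0 lower by edgeR's quasi-likelihood test, against 6.69% and 5.3% of all tested genes. Cdk6, the kinase partner of D-cyclins, had 15.7 ± 2.24 CPM in CEK and 13.7 ± 1.46 CPM in CON hearts (log2 fold change 0.20 ± 0.041), and Ccne1, which encodes cyclin E1, 1.47 ± 0.447 CPM in CEK and 1.22 ± 0.437 CPM in CON hearts (0.28 ± 0.075). Of 13 tested genes of mitotic entry 1 passed (7.69%, near the share of all genes), namely Chek1, a checkpoint kinase upstream of WEE1 (0.25 ± 0.085, edgeR quasi-likelihood adjusted p = 0.0429). Its adjusted p was 0.0768 without the 3 libraries that stood apart and 0.0597 with DESeq2.

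Pocket proteins and E2F factors gave 1 higher gene, E2f1 (0.36 ± 0.105), and 1 lower gene, E2f6 (-0.14 ± 0.032), of 13 (7.69% each, against 6.69% and 5.3% of all tested genes). The 3 tested INK4 inhibitors, which bind CDK4 and CDK6, had no call, with log2 fold changes from -0.10 to 0.12. Of 18 genes for turnover and upstream control of D-cyclins and Cip/Kip proteins, Myc was higher (0.53 ± 0.099). Fbxo31, an F-box protein that targets cyclin D1 for degradation, was lower (-0.17 ± 0.035), as was Foxo4, a forkhead factor that can induce Cdkn1b (-0.16 ± 0.045; edgeR quasi-likelihood adjusted p = 7.83e-05, 0.000209 and 0.0137 for the 3). With the macrophage score as a covariate Cdk6 and Fbxo31 passed, and Ccne1, Chek1, E2f1, E2f6, Myc and Foxo4 did not.

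Rhythms were about as frequent in the 7 lists as elsewhere, with 17 of 101 tested genes (16.8%) in CEK and 16 (15.8%) in CON hearts, against 15.6% and 14.6% of all tested genes. Cdc25b, which encodes a phosphatase that removes the WEE1 mark from CDK1, peaked at ZT8.92 in CEK and ZT9.28 in CON hearts with amplitudes of 0.50 and 0.52 (log2; edgeR quasi-likelihood adjusted p = 1.62e-08 and 5.71e-09). Cdc25a, which encodes another such phosphatase, peaked at ZT3.53 in CEK and ZT4.66 in CON hearts with amplitudes of 0.14 and 0.17. Ccne1 peaked at ZT8.47 in CEK and ZT9.33 in CON hearts with amplitudes of 0.44 and 0.58, and Cdk2 at ZT9.17 in CEK and ZT8.16 in CON hearts with 0.19 and 0.21. In the p53 list Sesn1 had amplitudes of 0.35 in CEK and 0.36 in CON hearts and Ddit4 0.73 in CEK and 0.63 in CON hearts, with peaks at ZT14.5 and ZT18.2 in CEK and ZT14.9 and ZT18.9 in CON hearts.

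Foxo3, a forkhead factor, had amplitudes of 0.30 in CEK and 0.40 in CON hearts and peaked at ZT13.9 in CEK and ZT13.7 in CON hearts, close to Wee1. The E2F partner Tfdp2 had 0.20 in CEK and 0.22 in CON hearts, and Fbxw7, an F-box protein that targets cyclin E, 0.20 in CEK and 0.22 in CON hearts. Each of these rhythmic genes passed in both genotypes, as did 11 of the 101 in all.

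Some genes passed in 1 genotype alone. These were 6 in CEK hearts (Cdkn2b, E2f8, Plk2, Zmat3, Eda2r and Tnfrsf10b) and 5 in CON hearts (Ccne2, E2f3, E2f5, Mcm6 and Smad3). E2f8 had amplitudes of 0.33 in CEK and 0.21 in CON hearts, Eda2r 0.25 in CEK and 0.07 in CON hearts, E2f5 0.08 in CEK and 0.20 in CON hearts, and Mcm6 0.10 in CEK and 0.16 in CON hearts. In the p53 list 7 of 25 genes were rhythmic in CEK and 3 in CON hearts, against 15.6% and 14.6% of all tested genes. For none of the 11 genes did a difference in rhythm pass (edgeR quasi-likelihood adjusted p = 1.00). Apart from E2f5 and Mcm6, the genes rhythmic in 1 genotype were picked out after their values were seen.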

How the data were processed

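Counts of reads per gene for 64 libraries were used as deposited by the authors; whole numbers with unequal totals mark them as raw counts. RNA was extracted with an RNeasy kit and libraries made with a SMARTER mRNA-seq kit, per the labels' protocols. Reads were aligned with STAR 2.6.1d to GRCm38 and counted with HTSeq 0.11.1, per the submitters' processing notes; these do not state the annotation release or the strand setting. Reads counted to no gene or to several stayed out (5 summary rows; reads in no feature made 2.92 to 12.6% of the total, median 3.56%).

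Genes were kept by filterByExpr on 16 groups (minimum count 10, total 15), leaving 16417, and libraries scaled by TMM (edgeR 4.0.16, R 4.3.3). Genotype differences came from a quasi-likelihood fit of 16 group means (48 residual degrees of freedom), rhythms from 24-h cosine and sine terms per genotype (58 residual degrees of freedom), with Benjamini-Hochberg adjustment over all genes and a threshold of 0.05. CPM were TMM-scaled, log2 CPM used a prior count of 2, and RPKM used exon lengths of GENCODE M21. A marker score is the average log2 CPM over its list, compared by 100000 permutations of genotype within time. Tests were checked on simulated data.

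The 7 genes and all gene lists were chosen with earlier results of these data known. Named besides them were Nfil3, the clock landmarks, up to 4 called genes per list by the average difference, up to 2 by the CON rhythm, and the 5 genes most alike in group means (mean log2 CPM of at least 1, provisional names left out); for Ccnd2 those after the first are not reported here. Replicates of a group differed by more than sampling noise in all 96 pairs. Alternatives were RLE scaling, no filter, a stricter filter (1 CPM in 16 libraries), DESeq2 1.42.0, the replicate number as a block, 3 covariates, fits without 3 libraries or without mitochondrial genes, subsets of libraries, cosine terms for the average difference, and each of 64 libraries left out in turn.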

Additional observations from a re-analysis of the deposited data

Results flagged for a closer look

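In 11 of 112 groups of 4 hearts (7 genes in 16 groups), 1 heart lay so far from the other 3 that its gap to the nearest, as a share of the group's range, exceeded the 95% critical value of Dixon's test; chance gives about 1 in 20 such groups. Wee1 in CON at ZT6 replicate 4 was at 17.997 CPM, against 10.7 to 11.6 CPM in the others. Cdkn1a in CON at ZT3 replicate 3 was at 57.2 CPM, against 17.6 to 18.7 CPM. Cdkn1b was at 54.97 CPM in CEK at ZT3 replicate 3, at 54.7 CPM in CON at ZT0 replicate 3 and, on the low side, at 39.6 CPM in CON at ZT12 replicate 1. Cdkn1c in CEK at ZT3 replicate 2 was low at 5.62 CPM, in the heart with the highest macrophage score. Ccnd1 was low at 7.98 CPM in CEK at ZT0 replicate 4 and at 17.6 CPM in CEK at ZT3 replicate 3. Ccnd2 was high at 107 CPM in CEK at ZT15 replicate 1 and at 164 CPM in CEK at ZT18 replicate 1. Ccnd3 was low at 27.98 CPM in CEK at ZT0 replicate 4. The low Ccnd1 and Ccnd3 values at ZT0 and the high Ccnd2 value at ZT18 came from 2 of the 3 libraries that stood apart.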

How the results depend on the processing

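The rhythm and time-of-day calls of Wee1 and Cdkn1a, and the absence of such calls for the other 5 genes, were the same in every alternative run. The number of genes that differed on average between genotypes was 1968 and fell to 775 with the macrophage score as a covariate. The number with a difference in rhythm was 1, and 10 with no low-count filter; that with a varying genotype difference was 1, and 2 with DESeq2. With each library left out in turn both ranged from 1 to 2, the 2 arising without CON replicate 4 at ZT9 for the varying difference and without CON replicate 1 at ZT18 for the rhythm. The causes were not tested. Chek1 and Mcm7 lost their calls in several settings. No call of a named gene changed direction. Of the 40 genotype differences of Cdkn1b, Cdkn1c and the D-cyclins at single times, 15 changed sign in some alternative, 2 of them with a size of at least 0.15: Cdkn1b at ZT0 (-0.23, and 0.11 with the macrophage score) and Ccnd2 at ZT18. Averaged over times, Cdkn1b was at 0.07 with that score and at -0.08 without it. Deviations from group means had a median correlation of 0.0139 between same-numbered replicates (down to -0.587), against -0.00311 between other numbers. Of 64 libraries, 23 correlated best with their own number. These values do not settle whether same-numbered replicates pair the hearts. With the replicate number as a block 1980 genes differed on average and 2 of the 7 genes were rhythmic in CEK. With 4 hearts per genotype and time, a difference at 1 time is less certain than the average over 8.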
